A study of Mus musculus with 2 samples.

Results

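The oligoadenylate synthetase (Oas) family was followed in bone marrow cells that had been sorted as natural killer progenitors (NKP) and profiled by droplet single-cell RNA sequencing. The 6 members, Oas1a, Oas1g, Oas2, Oas3, Oasl1 and Oasl2, were taken by symbol from the 32285 genes of the deposited tables, and all 6 were found. They were chosen by their UMI counts in these same libraries, in interferon-responding and other cells, so every level below is a description and carries no test. One library was labelled as from Irf4-/- mice, a knockout of the lymphocyte transcription factor Irf4, and 1 as from wild-type (WT) C57BL/6 mice. Neither the age, sex and number of the mice nor the deleted stretch of Irf4 is stated in the labels. Both sorts kept CD122-bearing cells and discarded those that stained for lineage markers, for the stem cell proteins Sca-1 and c-kit, or for NK1.1 or Ncr1. A single library per genotype leaves no spread between replicates, and all intervals are 95% intervals of counting error only.

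Oas enzymes bind double-stranded RNA, as made by many viruses, and join ATP into short oligoadenylates, a signal that leads to the decay of viral and cellular RNA. Their genes are textbook interferon-stimulated genes: interferon receptors activate transcription factors that bind a promoter element called the interferon-stimulated response element (ISRE). In mouse, the Oas-like protein encoded by Oasl1 has no synthetase activity and holds back translation of Irf7, while Oasl2 encodes an active enzyme that also carries ubiquitin-like domains.

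All members lie on mouse chromosome 5 (GRCm38 coordinates, GENCODE M21 genes). Oas1a (chr5:120896256-120907521), Oas1g (chr5:120876142-120887613), Oas3 (chr5:120753098-120777661) and Oas2 (chr5:120730333-120749853) lie on the minus strand. Oasl2 (chr5:114896936-114912234) and Oasl1 (chr5:114923240-114937915) form a second group on the plus strand. No other gene overlapped a member on its own strand. On the opposite strand Gm43068 overlapped Oas2 and the antisense gene Gm13822 overlapped Oasl1, and no source used here says whether counting used the strand.

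Promoters are shown because the members differed in how strongly they went with the interferon response, and the ISRE is the element through which that response is known to reach them. The sequences are from RefSeq (GRCm38.p6), run from 250 bases before to 50 bases after the annotated start, and are written along the gene's own strand. Capitals mark the ISRE core, searched on both strands as GAAA, any 2 bases, GAAA; where 2 matches overlap, both are in the same run of capitals.
Oas1a (chr5:120907476-120907775, minus strand): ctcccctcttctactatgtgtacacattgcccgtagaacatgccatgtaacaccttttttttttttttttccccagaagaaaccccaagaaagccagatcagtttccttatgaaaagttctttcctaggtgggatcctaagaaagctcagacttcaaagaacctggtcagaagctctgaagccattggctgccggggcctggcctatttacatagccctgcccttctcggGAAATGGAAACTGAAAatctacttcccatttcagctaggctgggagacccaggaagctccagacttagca
Oas1g (chr5:120887564-120887863, minus strand): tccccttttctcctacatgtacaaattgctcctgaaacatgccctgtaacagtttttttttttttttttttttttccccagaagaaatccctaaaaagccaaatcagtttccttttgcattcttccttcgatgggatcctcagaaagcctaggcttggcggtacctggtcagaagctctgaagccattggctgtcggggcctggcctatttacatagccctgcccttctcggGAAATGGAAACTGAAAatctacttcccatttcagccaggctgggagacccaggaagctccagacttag
Oas3 (chr5:120777610-120777909, minus strand): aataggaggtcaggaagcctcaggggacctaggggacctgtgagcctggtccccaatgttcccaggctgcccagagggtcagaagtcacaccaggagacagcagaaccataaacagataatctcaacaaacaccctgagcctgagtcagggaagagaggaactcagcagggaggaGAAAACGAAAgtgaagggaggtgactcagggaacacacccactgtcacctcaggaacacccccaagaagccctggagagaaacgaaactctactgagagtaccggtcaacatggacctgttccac
Oasl2 (chr5:114896684-114896983, plus strand): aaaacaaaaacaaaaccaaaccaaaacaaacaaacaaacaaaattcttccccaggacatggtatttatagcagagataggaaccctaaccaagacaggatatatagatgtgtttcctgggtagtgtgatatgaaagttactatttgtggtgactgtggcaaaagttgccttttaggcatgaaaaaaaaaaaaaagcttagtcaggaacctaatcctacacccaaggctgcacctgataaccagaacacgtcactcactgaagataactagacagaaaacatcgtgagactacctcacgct
In Oas1a the matches span bases -20 to -11 and -14 to -5 from the start, in Oas1g bases -18 to -9 and -12 to -3, and in Oas3 a single match spans bases -75 to -66. These letters are absent from the windows of Oasl1, which is not printed, and Oasl2. No Oas2 promoter was available, so Oas2 was not searched. Of 32851 promoters in the table, 1131 (3.44%) held the ISRE core. A second interferon motif, the core of the gamma-activated site (TTCNNNGAA, both strands), occurred only in Oas1a among these 5 promoters, at bases -98 to -90, and in 8.30% of all promoters. A match is a description of letters, not evidence that a factor was bound. The Oas1a and Oas1g promoters were identical at 85.3% of aligned positions, and their longest coding transcripts at 90.6%. Of the 91-base windows in the last 500 bases of the Oas1a transcript, 42.2% occurred in Oas1g as well, and 13.7% the other way round. A 3' library reads transcript ends, so counts of Oas1a and Oas1g are uncertain where the counting could have split or dropped shared reads. No window of Oas2, Oas3, Oasl1 or Oasl2 was shared with another member.

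The library labelled Irf4-/- held 7955 kept cells and the library labelled WT 12367, with a median of 9540 and 7125 UMIs (unique molecular identifiers, here counted RNA molecules) per cell, and 27 cell barcodes occurred in both. Irf4 itself had 803 UMIs (9.77 CPM, that is UMIs of the gene per 1000000 UMIs of the cells counted) in the library labelled Irf4-/- and 287 UMIs (3.04 CPM) in the library labelled WT, the reverse of the order that the labels imply, so the libraries are called by their labels throughout. A 3' count need not test a deletion elsewhere in the gene. The sorted cells did not carry the markers of natural killer progenitors alone: 6692 and 11140 kept cells were T cells by at least 3 UMIs of the CD3 genes Cd3d, Cd3e and Cd3g, and 1043 and 909 were B cells by at least 3 UMIs of Cd79a and Cd79b, neither passing the other's gate. Gamma-delta T cells were the T cells with at least 2 UMIs of Trdc, 847 and 1387 in number. Cells of both gates (146 and 223) and of neither (74 and 95) were kept in values over all cells and over clusters. Of the marker genes of the gate itself, Il2rb, which encodes CD122, had a UMI in 80.8% and 74.3% of cells. Among the genes of markers sorted against, Klrb1c (NK1.1) had a UMI in 10.5% and 4.93% of cells and Ly6a (Sca-1) in 4.74% and 2.77%. Kit (c-kit) had a UMI in 1.21% and 0.437% of cells, and Ncr1 in 0.365% and 0.0809%. RNA of one class was also counted in the other: Ighm, an immunoglobulin gene, had a UMI in 76.1% and 72.4% of T cells at 178 and 213 CPM, against 3510 and 4067 CPM in B cells; the part of free RNA in the shares of positive cells below was not tested.

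A cell was called interferon-responding with at least 3 UMIs of Isg15, Rsad2 and Usp18 together, genes induced by interferon and not members of the family. This held for 381 cells (4.79%) of the library labelled Irf4-/- and 422 cells (3.41%) of the library labelled WT. Usp18 was the only 1 of the 3 genes counted in 20 (5.25%) and 3 (0.71%) of these responding cells. The class is a range and not a cell type: 139 and 96 of its cells had exactly 3 such UMIs, and 350 and 238 cells just outside had 2. Depth enters the cut. After every cell was thinned to 2000 UMIs the shares were 0.871% (interval 0.678% to 1.10%) and 1.04% (0.869% to 1.24%), so the order of the libraries turned round and no difference in the share is read. Responding cells were mostly T cells, 332 and 392 of them, with 44 and 57 gamma-delta T cells among these, and only 23 and 13 B cells. Genes of type I and III interferon themselves, 20 in the tables, had 4 and 7 UMIs in all.

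Within T cells every member but the rare Oas1g stood far higher in responding cells than in the others, in both libraries. Levels are in CPM, and because a 3' library counts transcript ends they were not divided by length. Oas3, encoding the largest enzyme of the family, was the most abundant. It had 59.9 CPM in responding and 11.2 CPM in other T cells of the library labelled Irf4-/-, and 67.9 CPM in responding and 8.95 CPM in other T cells of the library labelled WT. Responding over other T cells, the library labelled Irf4-/- had a log2 ratio of 2.42 (2.21 to 2.63) and the library labelled WT of 2.92 (2.71 to 3.13).

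Oas2, the middle-sized enzyme, was the member most nearly restricted to responding T cells. It had 13 UMIs in 332 responding T cells and 11 UMIs in 6360 others of the library labelled Irf4-/-, and 36 UMIs in 392 responding T cells and 20 UMIs in 10748 others of the library labelled WT. These counts gave log2 ratios of 4.32 (3.05 to 5.63) and 5.35 (4.52 to 6.22), the highest of the family in each library. Oas1a, a small enzyme, had the lowest: 24.4 CPM in responding and 5.55 CPM in other T cells of the library labelled Irf4-/-, and 11.4 CPM in responding and 2.53 CPM in other T cells of the library labelled WT. Its log2 ratios of 2.13 (1.80 to 2.46) and 2.17 (1.65 to 2.65) were nearly the same in the 2 libraries.

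The Oas-like genes lay between. Oasl1 had 29.8 CPM in responding and 3.23 CPM in other T cells of the library labelled Irf4-/-, a log2 ratio of 3.21 (2.88 to 3.53), and 30.01 CPM in responding and 2.15 CPM in other T cells of the library labelled WT, a log2 ratio of 3.80 (3.45 to 4.15). Oasl2 had 38.4 CPM in responding and 4.32 CPM in other T cells of the library labelled Irf4-/-, a log2 ratio of 3.15 (2.87 to 3.44), and 55.7 CPM in responding and 2.69 CPM in other T cells of the library labelled WT, a log2 ratio of 4.37 (4.09 to 4.65). Oas1g stayed at 0 to 2 UMIs in each of these 4 sets of T cells. All 5 measured members were thus 2-fold higher or more in both libraries, where 3.82% and 6.25% of all genes with at least 20 UMIs were, and none was 2-fold lower, where 3.13% and 3.33% were; because the members were chosen for this response, nothing is read from that count.

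**Figure D1:**
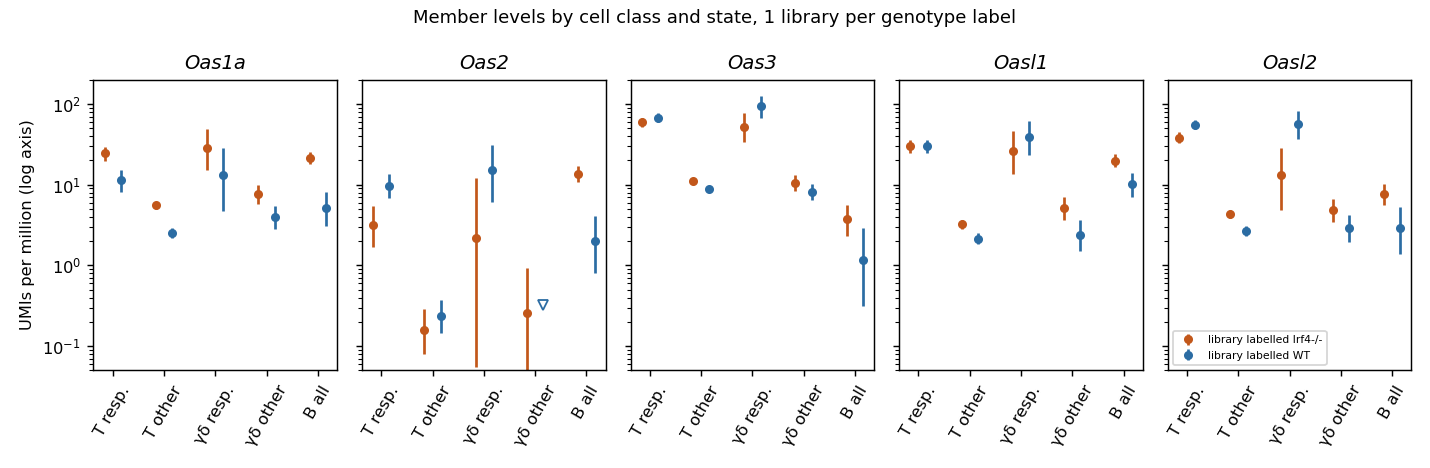
CPM (log axis) of 5 members in responding and other T cells, responding and other gamma-delta T cells (a subset of the T cells) and all B cells; points are the 2 libraries, bars are exact Poisson intervals, and the open triangle is the floor of 3 counts where a library had none. Oas3 leads in T cells (59.9 and 67.9 CPM when responding) and is low in B cells, while Oas2 is near 0 in other T cells and reaches 13.5 CPM in B cells of the library labelled Irf4-/-.

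The members followed the strength of the response as well as its presence. T cells were split by their Isg15, Rsad2 and Usp18 UMIs into 0, 1 to 2, 3 to 9, and 10 or more. Over these 4 steps Oas3 had 9.86, 14.5, 42.2 and 111 CPM in the library labelled Irf4-/- and 7.77, 16.5, 57.0 and 92.9 CPM in the library labelled WT. Oasl2 had 3.54, 6.32, 20.6 and 89.8 CPM in the library labelled Irf4-/- and 2.22, 5.65, 33.7 and 106 CPM in the library labelled WT, the widest span of the well-counted members. Oasl1 reached 63.1 and 49.1 CPM at the top step and Oas2 5.73 and 18.8 CPM. Each of these members was highest at the top step in both libraries. Oas1c, a further Oas1 gene that is not a member, rose too, but less. It had 6.65, 7.62, 10.3 and 14.3 CPM in the library labelled Irf4-/- and 7.14, 6.98, 9.30 and 13.4 CPM in the library labelled WT. Responding over other T cells, its log2 ratios in these libraries were 0.71 (0.24 to 1.15) and 0.57 (0.06 to 1.04). Median depth was 9661 to 10736 UMIs over the steps in the library labelled Irf4-/- and 7178 to 8598.5 UMIs in the library labelled WT.

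**Figure D2:**
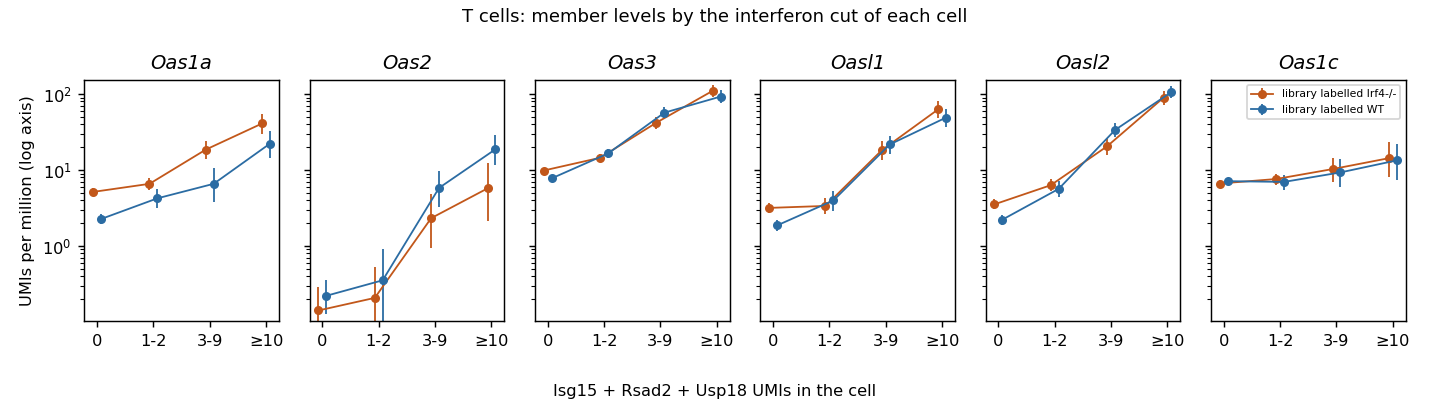
CPM (log axis) of 5 members and of Oas1c in T cells, by the sum of Isg15, Rsad2 and Usp18 UMIs in the cell; lines join the steps of each library and bars are exact Poisson intervals. The members climb to their highest level at 10 or more UMIs, the Oas1a line of the library labelled Irf4-/- lies above that of the library labelled WT at every step, and the Oas2 line lies below it.

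Even in responding T cells a single cell rarely showed the whole family. At least 1 member was detected in 66.0% and 66.3% of responding T cells, at least 2 members in 33.7% and 33.2%, and at least 3 in 14.5% and 9.44%. Among other T cells at least 1 member was detected in 20.4% (19.4% to 21.4%) and 10.95% (10.4% to 11.6%), and after thinning to 2000 UMIs in 4.53% and 3.37%. No T cell held more than 14 UMIs of the 6 members together. Within responding T cells the members' pairwise correlations over cells ran low, from 0.12 to 0.30 in the library labelled Irf4-/- and from 0.10 to 0.21 in the library labelled WT, over 332 and 392 cells; the counts are sparse and nothing is read from them.

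The family as a whole was higher in the library labelled Irf4-/-. Oas1a was higher there in both T cells and B cells, while the direction of Oas2 differed between these classes. Over all kept cells the 6 members summed to 2890 UMIs (35.2 CPM) in the library labelled Irf4-/- and 2224 UMIs (23.6 CPM) in the library labelled WT, a log2 ratio of 0.58 (0.50 to 0.66). Oas1a had 7.93 and 3.06 CPM (log2 ratio 1.37, 1.17 to 1.58) and Oas2 1.48 and 0.70 CPM (1.09, 0.64 to 1.54). Oasl1 was at 0.64, Oasl2 at 0.40 and Oas3 at 0.26 on the same log2 scale, and Oas1g had 9 and 3 UMIs. So 2 of the 5 members with at least 20 UMIs were 2-fold higher or more, where 4.55% of 14117 genes were, and none was 2-fold lower, where 1.41% were. Over all genes the median log2 ratio was 0.04.

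Oas1a was higher in the library labelled Irf4-/- in each T cell class below, responding and other cells together. Among responding cells alone the interval held 0 in gamma-delta T cells, with 13 and 6 UMIs, and in T cells high in lectin receptors, with 43 and 9 UMIs (0.65, -0.41 to 1.87). In responding T cells it had 99 UMIs (24.4 CPM) in the library labelled Irf4-/- and 42 UMIs (11.4 CPM) in the library labelled WT, a log2 ratio of 1.10 (0.57 to 1.66). In other T cells it had 382 UMIs (5.55 CPM) and 212 UMIs (2.53 CPM), a log2 ratio of 1.13 (0.89 to 1.38). T cells without a single UMI of the 3 response genes gave 1.19 (0.90 to 1.48), and those with 1 to 2 such UMIs 0.63 (0.14 to 1.14). T cells with 3 to 9 gave 1.50 (0.69 to 2.37), and those with 10 or more 0.88 (0.14 to 1.65). Gamma-delta T cells gave 0.98 (0.41 to 1.56), T cells with Cd8a or Cd8b1 1.42 (1.12 to 1.72), T cells high in the lectin receptors Klre1, Klrk1 and Klrc2 0.86 (0.39 to 1.36) and dividing T cells 1.62 (0.63 to 2.75). Of 15 clusters that held cells of both libraries, those of neither or both gates included, the Oas1a level was higher in the library labelled Irf4-/- in 15. Among the 11 T cell clusters outside the one led by interferon-stimulated genes, it ran from 3.73 to 8.13 CPM in the library labelled Irf4-/- and from 0.97 to 5.80 CPM in the library labelled WT. Oas1a had 652 and 289 UMIs over all cells and its near copy Oas1g 9 and 3; reads that both genes share may have been left uncounted, and their part in the result was not tested.

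**Figure D3:**
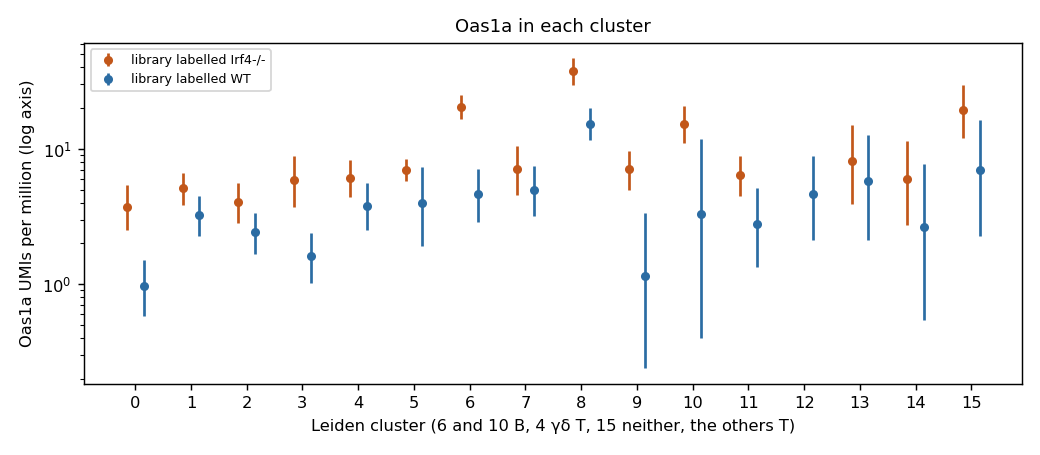
Oas1a CPM (log axis) in each of 16 clusters of both libraries, with exact Poisson intervals; cluster 12 has cells of the library labelled WT alone. The library labelled Irf4-/- has the higher point in each of the 15 shared clusters, and the cluster led by Cxcl10, Ifit3 and Ifit1 (number 8) is the highest in both libraries, at 37.6 and 15.4 CPM.

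Of the other members, only Oasl2 had library ratios of opposite sign in the 2 T cell states with intervals that left out 0. In responding T cells Oas2 had 13 UMIs (3.20 CPM) in the library labelled Irf4-/- and 36 UMIs (9.73 CPM) in the library labelled WT, a log2 ratio of -1.60 (-2.64 to -0.65). Oasl2 had 156 UMIs (38.4 CPM) and 206 UMIs (55.7 CPM), a log2 ratio of -0.53 (-0.84 to -0.23). Oas3 at -0.18 (-0.44 to 0.08) and Oasl1 at -0.01 (-0.39 to 0.38) had intervals that held 0. One of 5 measured members was 2-fold higher (Oas1a) and 1 was 2-fold lower (Oas2), where 2.10% and 1.18% of 9503 genes were. In subsets of responding T cells the Oasl2 interval held 0. Those with Cd8a or Cd8b1 gave -0.20 (-0.57 to 0.18) and those high in lectin receptors -0.45 (-1.14 to 0.28). Dividing ones gave 1.08 (-0.54 to 3.11), with 17 and 4 UMIs. By strength, Oasl2 gave -0.71 (-1.21 to -0.23) at 3 to 9 response UMIs and -0.24 (-0.65 to 0.16) at 10 or more. Responding T cells had a median of 5 and 6 and a mean of 7.63 and 7.77 response UMIs per cell. These were similar raw counts, but at a median depth of 10650.5 and 8205.5 UMIs. In CPM the response genes were not all level between the libraries. Isg15 had 409 and 538 CPM (log2 ratio -0.40, -0.49 to -0.30) and Rsad2 75.1 and 137 CPM (-0.87, -1.08 to -0.66). Usp18 had 140 and 148 CPM (-0.08, -0.25 to 0.09), an interval that held 0. The part of response strength in the Oas2 and Oasl2 ratios was not tested. Markers of red blood cell precursors were also high in responding T cells, at 1726 and 5458 CPM over 6 genes against 74.8 and 400.5 CPM in other T cells. Without the cells holding 50 or more such UMIs the family's log2 ratio in responding cells of all classes was -0.24, against -0.23 with them.

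In other T cells the order was different. Oasl2 had 297 UMIs (4.32 CPM) in the library labelled Irf4-/- and 225 UMIs (2.69 CPM) in the library labelled WT, a log2 ratio of 0.68 (0.43 to 0.94), so its sign was the reverse of that in responding T cells. Oasl1 had 3.23 and 2.15 CPM (0.59, 0.30 to 0.88) and Oas3 11.2 and 8.95 CPM (0.32, 0.17 to 0.47). Oas2 was close to the limit of detection, with 11 and 20 UMIs (-0.58, -1.79 to 0.55). Among the 5 measured members 1, Oas1a, was past 2-fold, where 2.23% of genes were higher and 1.84% lower by as much. The family's sum gave 24.4 and 16.6 CPM, a log2 ratio of 0.56 (0.46 to 0.67), in other T cells and 156 and 175 CPM, a log2 ratio of -0.17 (-0.33 to -0.01), in responding T cells. Neither ratio was stable over the strength of response. In other T cells it was 0.61 (0.48 to 0.73) at 0 response UMIs and 0.01 (-0.18 to 0.21) at 1 to 2. In responding T cells it was -0.30 (-0.53 to -0.07) at 3 to 9 response UMIs and 0.10 (-0.13 to 0.33) at 10 or more. Responding T cells with Cd8a or Cd8b1 gave -0.0009 (-0.20 to 0.20) and those high in lectin receptors -0.13 (-0.47 to 0.21). Responding dividing T cells gave 0.97 (0.27 to 1.74), with 83 and 21 UMIs. The difference between the states was not tested.

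Gamma-delta T cells, which carry another form of T cell receptor, were lower for the family in the library labelled Irf4-/- when responding and higher when not, at small counts. Their responding cells had 56 UMIs of the family (122 CPM) in 44 cells of the library labelled Irf4-/- and 100 UMIs (217 CPM) in 57 cells of the library labelled WT, a log2 ratio of -0.83 (-1.33 to -0.34). Oasl2 had 6 and 26 UMIs there (-2.11, -3.68 to -0.79) and Oas3 24 and 43 UMIs (-0.83, -1.62 to -0.08). Of the 3 members with at least 20 UMIs there, Oasl2 was 2-fold lower, where 2.57% of genes were, and none was 2-fold higher, where 4.04% were. Erythroid markers stood at 2.18 and 7617 CPM in these responding cells, and natural killer markers at 157 and 237 CPM, and their part in the result was not tested. Oas2 had 1 and 7 UMIs, all 7 of the library labelled WT being in responding cells, with 0 in the other 1330. Other gamma-delta T cells had 28.4 and 17.4 CPM of the family, a log2 ratio of 0.70 (0.41 to 1.01). Without gamma-delta cells the sum in responding T cells was 160 and 169 CPM, a log2 ratio of -0.08 (-0.25 to 0.09), an interval that held 0. In those cells Oas2 was at -1.43 (-2.53 to -0.41) and Oasl2 at -0.42 (-0.74 to -0.10).

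B cells had a higher log2 ratio between the libraries than T cells or gamma-delta T cells, at a median depth of 4158 and 2972 UMIs per cell. The 6 members summed to 397 UMIs (67.2 CPM) in the library labelled Irf4-/- and 74 UMIs (21.3 CPM) in the library labelled WT, a log2 ratio of 1.66 (1.30 to 2.04). Oas2 had 80 UMIs (13.5 CPM) and 7 UMIs (2.01 CPM), a log2 ratio of 2.75 (1.639 to 4.11), the opposite direction to T cells. Oas1a had 127 and 18 UMIs (21.5 and 5.18 CPM), a log2 ratio of 2.05 (1.33 to 2.85), and Oas3 22 and 4 UMIs (1.69, 0.14 to 3.69). Oasl2 had 45 and 10 UMIs (1.40, 0.39 to 2.56) and Oasl1 117 and 35 UMIs (0.97, 0.42 to 1.56). Of the 5 measured members 4 were 2-fold higher or more, where 4.46% of 10212 genes were, and none was 2-fold lower, where 2.14% were. Oas1g had 6 UMIs and 0 UMIs. After thinning to 2000 UMIs at least 1 member was found in 12.8% and 4.92% of B cells, against 26.2% and 6.93% before.

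The make-up of the B cells differed between the libraries. Precursor B cells, with at least 2 UMIs of Vpreb1, Vpreb2, Igll1 and Dntt, numbered 265 and 13. Without them the sum's log2 ratio was 1.73, against 1.66 with them. B cells with Ighd or Fcer2a, markers of mature B cells, had 206 UMIs (73.7 CPM) in 509 cells of the library labelled Irf4-/- and 34 UMIs (16.6 CPM) in 558 cells of the library labelled WT, a log2 ratio of 2.15 (1.62 to 2.72). The remaining B cells had 89 and 39 UMIs, a log2 ratio of 1.25 (0.69 to 1.84), and B cells taken from clusters gave 1.21. Neutrophil markers moved with the same contrast, at 337 and 19.0 CPM over 6 genes in B cells, and so did erythroid markers the other way, at 11.7 and 2375 CPM; their part in the result was not tested. T cell RNA was rare in B cells, with Trac at 5.92 and 4.32 CPM against 474 and 480 CPM in T cells. Only 2.21% and 1.43% of B cells were responding by the cut, and Oas levels in other B cells, 64.1 and 18.7 CPM in sum, nearly equalled those of all B cells.

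**Figure D4:**
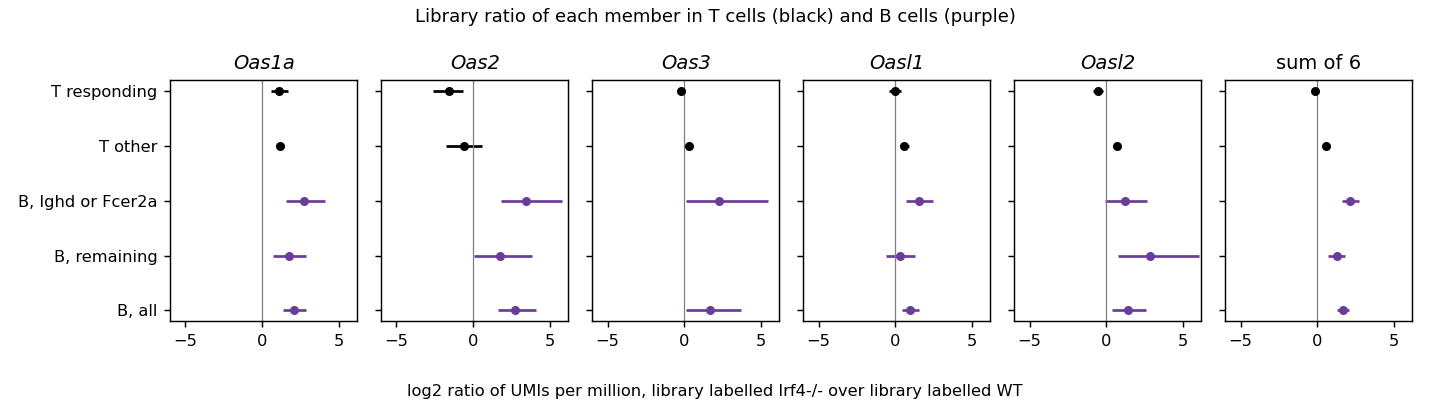
Log2 ratios between the libraries (positive where the level is higher in the one labelled Irf4-/-) for 5 members and the sum of 6 in T cells (black) and B cells (purple), with exact counting intervals; a missing point means that the counts of both libraries were at or under 3 UMIs. Oas1a lies right of 0 in every row, while Oas2 lies at -1.60 in responding T cells and at 2.75 in all B cells.

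Over all kept cells, then, the higher Oas2 level of the library labelled Irf4-/- came from its B cells, which held 80 of its 122 Oas2 UMIs, while its T cells held 24. In the library labelled WT T cells held 56 of 66. T cells alone gave Oas2 a log2 ratio of -0.96 (-1.71 to -0.24). The cluster led by interferon-stimulated genes held 10 Oas2 UMIs of the library labelled Irf4-/- and 36 of the library labelled WT. Among the other 11 T cell clusters Oas2 was higher in the library labelled Irf4-/- in 6. Its levels there were at most 0.86 and 1.11 CPM.

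B cells and T cells used the family in different proportions. Oas3 made up 5.54% and 5.41% of the family's UMIs in B cells of the libraries labelled Irf4-/- and WT, against 43.7% (41.7% to 45.8%) and 49.2% (47.0% to 51.4%) in their T cells. Oasl1 made up 29.5% and 47.3% in B cells, against 14.8% and 14.3% in T cells, and Oas1a 32.0% and 24.3% in B cells, against 20.8% and 12.5% in T cells. Oas2 made up 20.2% and 9.46% in B cells, against 1.04% and 2.75% in T cells. B over T cells, Oas3 had a log2 ratio of -1.90 (-2.58 to -1.29) in the library labelled Irf4-/- and -3.31 (-5.19 to -1.95) in the library labelled WT. Oas2 had 5.36 (4.69 to 6.08) and 1.65 (0.28 to 2.79), Oasl1 2.07 (1.76 to 2.38) and 1.60 (1.05 to 2.11), and Oas1a 1.70 (1.41 to 1.99) and 0.84 (0.06 to 1.53). In the library labelled Irf4-/- 3 of 5 members were 2-fold higher in B cells and 1 was 2-fold lower, where 19.9% and 12.3% of genes were; in the library labelled WT 2 of 5 were higher and 1 lower, where 21.0% and 11.1% were. Oasl2 had intervals that held 0 in both libraries, at 0.29 (-0.18 to 0.74) and -0.78 (-1.85 to 0.12).

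**Figure D5:**
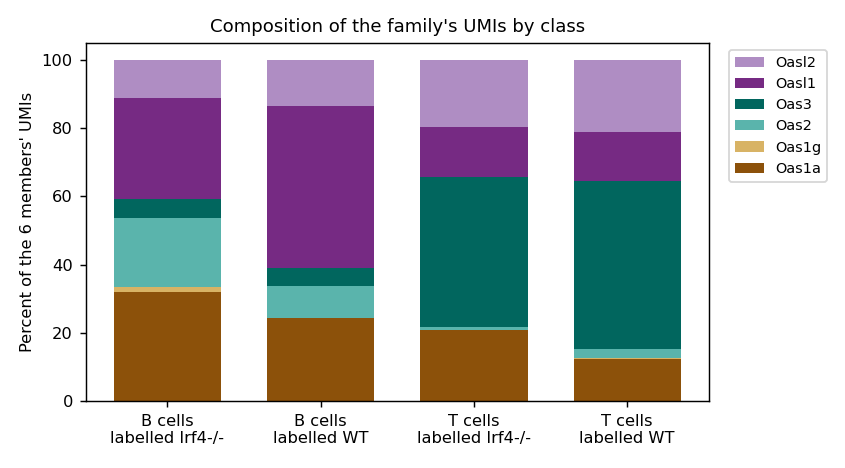
Share of each member in the UMIs of the 6 members, in percent, for B cells and T cells of each library. Oas3 is a narrow band in B cells (5.54% and 5.41%) and the widest one in T cells (43.7% and 49.2%).

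Levels across the classes gave each member an order. For Oas3 the order was responding T cells, responding gamma-delta cells included, then other T cells, then B cells, and each step was wider than the counting intervals in both libraries. For Oas2 all B cells (13.5 CPM) stood above responding T cells (3.20 CPM) in the library labelled Irf4-/-, whereas responding T cells (9.73 CPM) stood above B cells (2.01 CPM) in the library labelled WT. Oas1a was at 24.4 CPM in responding T cells and 21.5 CPM in B cells of the library labelled Irf4-/-, levels whose intervals overlapped, and at 11.4 and 5.18 CPM in those of the library labelled WT. Oasl1 had the order of responding T cells, B cells and other T cells in both libraries, with no overlap of intervals. Oasl2 had that order too, but in the library labelled WT its B cells (2.88 CPM) and other T cells (2.69 CPM) had overlapping intervals.

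Genes with the most similar pattern were ranked by Pearson's r of log2(CPM + 1) over 12 units, namely other T, gamma-delta T and B cells in responding and other state in each library, among 10066 genes. These units share libraries and the cut, and the values are a description. The sum of the 6 members was closest to Bst2 (r = 0.98), Parp9 (0.98), Xaf1 (0.97), Isg15 (0.97, itself a gene of the cut), Dhx58 (0.96), Eif2ak2 (0.96), Ifi203 (0.96), Trim30a (0.95), Pnpt1 (0.95) and Rnf213 (0.94). Single members had different neighbours. H2-T23, Helz2 and Psmb9 were nearest to Oas1a (0.90 to 0.88), and Cd69, Ddx60 and Phf11a to Oas3 (each 0.98). Ifi203, Parp14 and Xaf1 were nearest to Oasl1 (0.97 to 0.96), and Rnf213, Bst2 and Icam1 to Oasl2 (0.95 to 0.93). Mndal, Tor3a and Ifi209 were nearest to Oas2 (0.97 to 0.93), which had only 0 or 1 UMI in some of the units.

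Other genes of the pathway were close to level between the libraries. A list of 33 genes, 32 of them in the tables, held the other Oas1 genes, genes of oligoadenylate signalling, RNA sensors and interferon signalling, and had 28 genes with at least 20 UMIs over all kept cells, of which 0 were 2-fold higher and 0 were 2-fold lower, with a median log2 ratio of 0.07. Oas1c had 590 and 696 UMIs (-0.04). The receptor genes Ifnar1 (-0.04) and Ifnar2 (0.07) and the kinase gene Jak1 (-0.09) were close to level. In responding T cells 27 listed genes had enough UMIs, 0 were past 2-fold and the median was -0.19, and in other T cells 1 of 28 was, Usp18 (1.18), a cut gene that restrains interferon signalling, with a median of 0.07. In B cells 1 of 27 was 2-fold higher, Dhx58 (1.23), an RNA sensor of the RIG-I family, and 1 was 2-fold lower, the cut gene Rsad2 (-1.92), with 9 and 20 UMIs. Responding over other T cells, leaving out the 3 cut genes, 9 of 25 listed genes were 2-fold higher in the library labelled Irf4-/- and 12 of 25 in the library labelled WT, with medians of 0.49 and 0.76. Among these, picked after their values were seen, were the sensors Ifih1 (2.39 and 2.85), Dhx58 (2.58 and 2.91) and Zbp1 (2.11 and 2.84) and the factor Irf7 (2.11 and 2.79), whose translation Oasl1 protein restrains. Of the remaining Oas1 genes Oas1d, Oas1e, Oas1f and Oas1h had 0 or 1 UMI in each library, and Oas1b was not analysed here.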

How the data were processed

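The deposited UMI counts per gene and barcode were made by the authors with Cell Ranger 6.1.1, per the file headers; the submitters' processing notes name the build mm10, and no gene annotation release is named. The labels describe sorted cells but a nuclei kit. Barcodes with at least 500 genes, 1000 UMIs and under 10% mitochondrial UMIs were kept, 7955 of 8147 and 12367 of 12732 for the libraries labelled Irf4-/- and WT, holding 82195217 and 94374447 UMIs; no doublets were called, and cells that passed both the CD3 and CD79 gates were set apart. Counts were summed per library and population. CPM was given with an exact Poisson interval, shares with a Clopper-Pearson interval, and log2 ratios with an exact conditional binomial interval, checked on simulated data; a ratio needs more than 3 UMIs in a library. With 1 library per genotype no test was made. Thinning to 2000 UMIs left out 35 and 71 cells. Clusters came from scanpy 1.11.5 and igraph 0.11.9 (2000 variable genes, 30 components, 15 neighbours, resolution 1). The named genes were the 6 members, pathway genes past 2-fold or of high level, the 10 genes nearest the sum and the 3 nearest each member. Values of some listed pathway genes are not reported here. Members, lists and gates were chosen with earlier results of these data known.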

Additional observations from a re-analysis of the deposited data

Results flagged for a closer look

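The values of 2 members and of the family's sum ran in opposite directions between cell classes or states under the same comparison of the library labelled Irf4-/- with the library labelled WT, each with a counting interval that left out 0; with 1 library per genotype the differences between classes were not tested. Oas2 had a log2 ratio of -1.60 in responding T cells and 2.75 in B cells. Oasl2 had -0.53 in responding T cells, 0.68 in other T cells and 1.40 in B cells. Its interval held 0 in responding T cells with Cd8a or Cd8b1, in those high in lectin receptors and in dividing ones. The sum of the 6 members had -0.17 in responding T cells, 0.56 in other T cells and 1.66 in B cells. In responding T cells with Cd8a or Cd8b1 the sum was at -0.0009, and in responding dividing T cells at 0.97.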

How the results depend on the processing

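Over 233 alternative values, 9 changed sign. All values here are log2 ratios, library labelled Irf4-/- over library labelled WT unless said. For the family's sum in responding cells (-0.23), thinning every cell to 2000 UMIs gave 0.0083 and B cells only 0.24, while a cut of at least 2 UMIs gave -0.41 and of at least 5 UMIs -0.039. The share of responding cells (0.49) turned to -0.26 after thinning, and was 0.78 and 0.17 at cuts of 2 and 5 UMIs and 0.28 with Isg15 and Rsad2 only. In responding cells Oas3 (-0.25) was 0.055 after thinning and 0.040 at a cut of 5 UMIs, and Oasl1 (-0.10) 0.019 at that cut. With T cells only, Oas2 turned to -0.96 over all cells and -0.58 in other cells, and with B cells only to 1.45 in responding cells. Over all kept cells (0.58) the sum was 0.45 with T cells only, 1.66 with B cells only, 0.41 without Oas1a and Oas1g and 0.47 with the same mix of responding and other cells in both libraries. In other cells (0.75) the sum was 0.56 with T cells only, 1.78 with B cells only and 0.57 without Oas1a and Oas1g. Classes taken from clusters gave 0.82 for gamma-delta T cells (0.32 by gate) and 1.21 for B cells (1.66 by gate). Responding over other cells in the library labelled Irf4-/- (2.40), the sum was 3.22 after thinning, 1.86 and 2.86 at cuts of 2 and 5 UMIs, 2.63 with Isg15 and Rsad2 only, 2.67 with T cells only, 1.74 with B cells only and 2.57 without Oas1a and Oas1g. The same ratio in the library labelled WT (3.37) was 3.95 after thinning, 3.04 and 3.61 at cuts of 2 and 5 UMIs, and 3.51 without Oas1a and Oas1g. Beyond what each alternative's own construction changes, the cause was not tested. Leaving out Oas1a and Oas1g, cells rich in erythroid markers or precursor B cells was chosen after seeing the data. No paired analysis was possible because each genotype has 1 library and no replicate number. Oas1g and B cell counts of Oas3 are limited by depth.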
